A study of Homo sapiens with 2 samples.

Results

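The ribosomal protein pseudogenes described here were 160 features of a table of 54261, measured by RNA-seq in RKO cells, a human colorectal carcinoma line. They were chosen by symbol, as a ribosomal protein gene name followed by P and a number, and by a total of at least 20 reads over both libraries. The gene whose name stands before that P is called the parent. The values that chose the members were the summed reads, and everything given on their levels is a description of the libraries in hand.

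The siHNRNPM library came from RKO cells transfected with siRNA against HNRNPM, labelled as an HNRNPM knockdown. The control library came from RKO cells transfected with the negative control siRNA siNC and labelled WT. Each group was 1 library, so no difference has a replicate check and no test was made. The study set these cells side by side to see what gene expression looks like with less HNRNPM, an RNA-binding protein that takes part in pre-mRNA splicing.

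Mammalian genomes carry many processed pseudogenes of ribosomal protein genes, intronless copies made when an mRNA was reverse transcribed and put back into the genome. Ribosomal protein mRNAs are among the most abundant of a growing cell, and most of these copies have no promoter of their own and no intact reading frame. A short read from the parent's mRNA can match such a copy as well as the parent, so that a read counted in a pseudogene can come from its own locus or from the parent. The counts do not separate these sources.

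The siHNRNPM library held 13056118 reads and the control library 19931360. Levels are given as CPM, counts per 1000000 reads of the TMM-scaled library. Differences are given as a log2 ratio, siHNRNPM over control, with its 95% counting interval. HNRNPM had 1042 reads (79.6 CPM) in the siHNRNPM library, against 2870 (144 CPM) in the control library, a log2 ratio of -0.86 (-0.96 to -0.76). Of the markers listed for the line, EPCAM, KRT8, KRT18, CDX2 and VIM each had over 100 reads in both libraries, while the epithelial genes CDH1 and VIL1 had 1 and 0 reads in the siHNRNPM library and 10 and 1 in the control library. Of 4 markers of other cells, PTPRC had 0 and 2 reads, PECAM1 1 and 0, COL1A1 21 and 13, and ALB 77 and 0 in the siHNRNPM and control libraries in that order. The part of other cells or RNA in the results below was not tested.

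The sequences below show how close some members are to their parents. Each is a stretch of the parent's coding sequence and the matching stretch of the pseudogene, from GENCODE release 29 transcripts (build GRCh38), written 5′ to 3′ in the parent's sense. Capitals mark bases that differ from the parent. Except for RPL39, the stretch shown is the 120 ungapped bases with the most differences summed over the listed members. A member with no difference in it can differ elsewhere. RPL6P27 had 6 mismatches over 867 aligned bases, and RPL15P3 had 3 over 615.

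RPL6, a protein of the large ribosomal subunit, is shown because it and its pseudogenes were lower together. Its coding bases 709 to 828 of 867 are compared with RPL6P27 (chr18:6462144-6463015, minus strand), RPL6P10 (chr4:65573459-65574328, plus strand) and RPL6P19 (chr7:137721985-137722846, plus strand). RPL6P27 had no difference here, and RPL6P10 and RPL6P19 had 5 each.
RPL6: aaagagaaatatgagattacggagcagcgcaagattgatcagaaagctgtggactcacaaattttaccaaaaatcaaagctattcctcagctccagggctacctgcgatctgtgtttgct
RPL6P27: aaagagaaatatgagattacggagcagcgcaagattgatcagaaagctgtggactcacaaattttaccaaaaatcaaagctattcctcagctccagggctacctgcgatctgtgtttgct
RPL6P10: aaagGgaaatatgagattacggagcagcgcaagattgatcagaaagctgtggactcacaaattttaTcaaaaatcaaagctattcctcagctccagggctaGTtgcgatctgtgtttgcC
RPL6P19: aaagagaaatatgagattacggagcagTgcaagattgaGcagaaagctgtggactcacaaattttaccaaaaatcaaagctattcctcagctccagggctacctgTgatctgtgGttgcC

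RPS18, a protein of the small subunit, is shown because it was listed at 0 reads while its pseudogenes were among the most read. Coding bases 168 to 287 of 459 are compared with RPS18P5 (chr3:101576489-101576947, minus strand), which differed at 3, and RPS18P12 (chr17:14705076-14705534, minus strand), which differed at 7.
RPS18: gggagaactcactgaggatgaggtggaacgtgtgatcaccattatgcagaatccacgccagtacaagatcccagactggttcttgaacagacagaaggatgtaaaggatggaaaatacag
RPS18P5: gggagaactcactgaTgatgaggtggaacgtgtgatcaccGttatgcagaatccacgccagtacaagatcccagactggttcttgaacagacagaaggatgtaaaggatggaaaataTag
RPS18P12: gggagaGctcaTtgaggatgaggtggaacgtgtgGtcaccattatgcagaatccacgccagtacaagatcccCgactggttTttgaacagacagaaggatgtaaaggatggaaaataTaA

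RPL39, a short protein of the large subunit, is shown because its pseudogene RPL39P3 (chr6:73373108-73373263, minus strand) matched the whole 156-base coding sequence with no difference. A read inside this stretch fits both genes equally well.
RPL39 and RPL39P3: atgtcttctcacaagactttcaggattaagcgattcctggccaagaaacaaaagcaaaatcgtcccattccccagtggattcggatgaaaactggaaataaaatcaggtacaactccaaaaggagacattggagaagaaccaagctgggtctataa

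RPL15, of the large subunit, is shown because its 2 pseudogenes differ in likeness to it. Over coding bases 116 to 235 of 615, RPL15P3 (chr6:12514110-12514724, plus strand) had no difference and RPL15P2 (chr14:94800849-94801463, minus strand) had 14.
RPL15: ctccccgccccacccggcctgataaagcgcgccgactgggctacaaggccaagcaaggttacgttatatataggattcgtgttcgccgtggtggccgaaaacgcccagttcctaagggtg
RPL15P3: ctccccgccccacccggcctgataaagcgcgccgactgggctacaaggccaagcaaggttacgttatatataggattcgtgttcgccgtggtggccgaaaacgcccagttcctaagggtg
RPL15P2: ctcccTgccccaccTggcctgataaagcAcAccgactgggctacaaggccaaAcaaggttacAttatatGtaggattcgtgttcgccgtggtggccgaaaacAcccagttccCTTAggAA

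RPSA, a small subunit protein also known as the laminin receptor precursor, is shown with RPSAP52 (chr12:65758020-65826997, minus strand), a transcribed pseudogene that stood apart from it. Coding bases 347 to 466 of 888 held 14 differences.
RPSA: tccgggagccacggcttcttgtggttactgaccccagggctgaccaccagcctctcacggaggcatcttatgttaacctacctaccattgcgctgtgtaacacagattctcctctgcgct
RPSAP52: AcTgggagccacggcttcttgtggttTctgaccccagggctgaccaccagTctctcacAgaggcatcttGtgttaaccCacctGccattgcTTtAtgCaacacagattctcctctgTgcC

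A total of 1917 symbols fitted the name pattern. Of these, 1405 had no read, 352 had 1 to 19 reads and 160 reached the minimum. The members held 126258 reads in the siHNRNPM library and 172188 in the control library, or 0.967% and 0.864% of each library. Just inside the minimum stood RPL21P97 with 9 and 11 reads, RPL36AP7 with 6 and 14, and RPL41P2 with 10 and 10, in the siHNRNPM and control libraries in that order. Just outside stood RPL10AP9 with 3 and 16 reads, RPS12P26 and RPS2P40 with 9 and 10 each, and RPS3AP5 with 6 and 13.

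RefSeq lists 144 of the members as pseudogenes, 14 as transcribed pseudogenes and 2 as protein-coding. GENCODE held 158 of them, 102 matched by name and 56 by position, and called 141 processed pseudogenes; 145 had a single exon. RPS19BP1 is 1 of the protein-coding entries. It fits the name pattern but encodes RPS19-binding protein 1, a nucleolar protein that binds the ribosomal protein RPS19, and is no pseudogene. The other, RPSAP58, is listed by RefSeq as a synonym of RPSA2 and by GENCODE as a processed pseudogene.

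Likeness to the parent was high for most members. The aligned part had a median identity of 97.2% over 157 members, with a range of 71.5% to 100%. Identity was 98% or more in 60 members and complete in 6, namely RPL39P3, RPS28P7, RPL41P5, RPL36AP37, RPL41P1 and RPL21P16. A run of at least 50 bases was shared with a parent transcript by 139 members, while the other 18 shared none.

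Location differed among members. A total of 45 overlapped the span of another annotated gene on the same strand. Another 48 overlapped only that of a gene on the opposite strand, and 15 overlapped an exon of another gene. Whether counting used strand was not given in the sources used here, so reads of overlapping genes cannot be told apart from those of the member.

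Reads were concentrated in few members. The 12 most read held 58.0% of all member reads, and their log2 ratios ran from 0.02 to 0.29. Their interval was above a ratio of 1 in 9 and spanned it in 3. Of all features with at least 100 reads, 22.7% had an interval above and 28.7% below. Those features had a median of 1356 reads, fewer than any of the 12, and intervals narrow with depth, so these shares are not at like depth. RPS18P5 led with 11599 reads (886 CPM) in the siHNRNPM library, against 16464 (828 CPM) in the control library, a log2 ratio of 0.10 (0.06 to 0.13). The RPL13A copy RPL13AP5, listed by RefSeq as transcribed, had 8305 reads (635 CPM) in the siHNRNPM library, against 10847 (546 CPM) in the control library, a log2 ratio of 0.22 (0.18 to 0.26).

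All of these well-read copies lay within 0.3 of no change on the log2 scale. RPL7P9 had 7152 reads (546 CPM) in the siHNRNPM library, against 9569 (481 CPM) in the control library, a log2 ratio of 0.18, and RPL7P1 had 4625 (353 CPM) against 6419 (323 CPM), a log2 ratio of 0.13. Their parent RPL7, a large subunit protein, had a log2 ratio of 0.17, and the copies differed from it by 0.01 (-0.04 to 0.06) for RPL7P9 and -0.04 (-0.10 to 0.02) for RPL7P1. RPL7AP6 had 6205 reads (474 CPM) against 9308 (468 CPM) in the same order, a log2 ratio of 0.02 (-0.03 to 0.06), below its parent RPL7A at 0.11.

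The other members with the most reads were likewise spread over both subunits. RPL39P3 had 5550 reads (424 CPM) in the siHNRNPM library, against 8184 (412 CPM) in the control library. RPS28P7, identical to the coding sequence of the small subunit gene RPS28 over its 210 bases, had 4207 reads (321 CPM) against 6177 (311 CPM). For both, the interval of the log2 ratio held 0, at 0.04 (-0.01 to 0.09) for RPL39P3 and 0.05 (-0.01 to 0.11) for RPS28P7. RPL29P4, RPL17P7, RPS2P5, RPS18P12 and RPL41P3 stood at log2 ratios of 0.26, 0.29, 0.28, 0.28 and 0.19, each with an interval above 0.

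Across the 160 members, 8 (5.0%) passed 2-fold higher in siHNRNPM cells with an interval that left out a ratio of 1, against 2.32% of the 13422 features with at least 20 reads. At least 2-fold lower were 4 members, or 2.5%, against 1.54% of those features. Of 89 pseudogenes of other housekeeping genes, 3.37% were past 2-fold higher and 1.12% lower, and of 497 other RefSeq pseudogenes 4.43% and 4.43%. The 8 members include RPS19BP1, which is no pseudogene. Regardless of size, the interval lay above a ratio of 1 in 52 members (32.5%, against 21.2% of features) and below it in 10 (6.25%, against 25.3%), and spanned it in 98. The median log2 ratio was 0.15, with quartiles of -0.12 and 0.39, beside a median of -0.01 over those features. Median depth was 146.5 reads for the members and 973.5 for those features, so these shares are not at like depth.

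These counts differed with depth. Among 96 members with at least 100 reads, 3 (3.125%) were past 2-fold higher and 0 lower. Of all features at that depth, 0.663% were higher and 0.565% lower. The 3 were RPS19BP1, which is no pseudogene, RPSAP52, and RPL13P5, which overlaps exons of other genes. The median log2 ratio of the 96 was 0.18, beside -0.02 over those features. The interval was above in 45 of these members (46.9%, against 22.7% of those features) and below in 6 (6.25%, against 28.7%). Among 64 members with 20 to 99 reads, 5 were past 2-fold higher and 4 lower, and the median was -0.02. Of all features with 20 to 99 reads, 10.5% were past 2-fold higher and 6.36% lower, so the shares among the shallow members, 7.81% and 6.25%, were no greater than that background.

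The parents' ratios were small as well. Of 56 parents with at least 20 reads none passed 2-fold in either direction, and the median log2 ratio was 0.14. The interval was above a ratio of 1 in 43 (76.8%) and below it in 3 (5.36%). Of all features with at least 100 reads, 0.663% were past 2-fold higher and 0.565% lower. Their interval was above in 22.7% and below in 28.7%, at a median of 1356 reads. The 21 ribosomal protein genes with no member had a median of 0.23 and an interval above in all 21. For contrast, 89 pseudogenes of other housekeeping genes had a median of 0.04, with the interval above in 12 (13.5%) and below in 11 (12.4%). The 497 other RefSeq pseudogenes had a median of 0.03. These lists differ in depth, with a median of 146.5 reads for the members, 71 for the other housekeeping pseudogenes and 26294 for the parents.

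Medians of large and small subunit members were close. The 92 large subunit members had a median log2 ratio of 0.15, with 3 (3.26%) past 2-fold higher and 1 (1.09%) lower. The 67 small subunit members, RPS19BP1 left out, had a median of 0.13, with 4 (5.97%) higher and 3 (4.48%) lower. Over all features with at least 20 reads these shares were 2.32% and 1.54%.

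**Figure D1:**
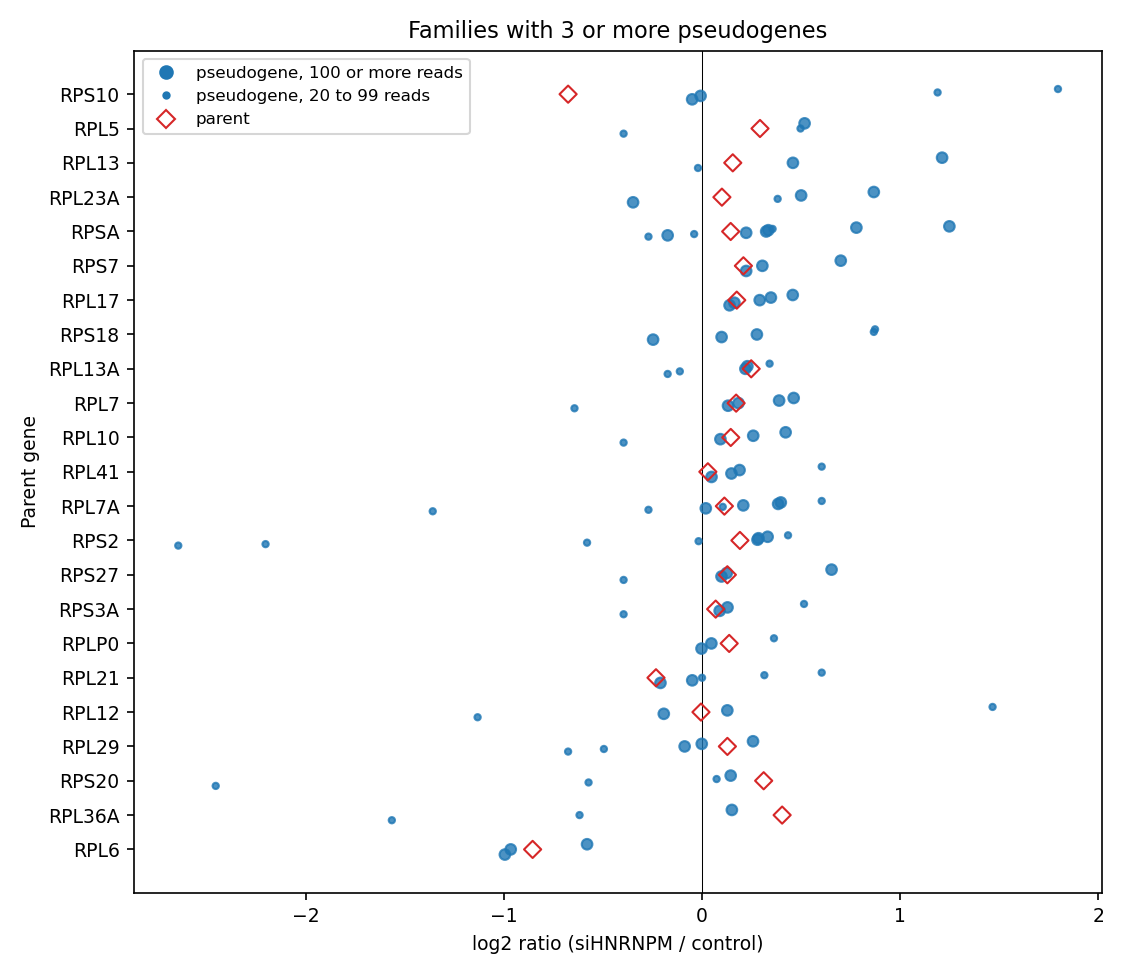
Log2 ratio of each pseudogene (filled circles, larger for 100 or more reads) and of its parent (open diamonds) in the 23 families with 3 or more pseudogenes, 1 row a family in order of the pseudogenes' median. RPL6 stands at the bottom with its parent and 3 pseudogenes all below 0, the RPS18 parent has no diamond since it had 0 reads, and the widest spreads come from pseudogenes with 20 to 99 reads.

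Each pseudogene was then set against its parent inside the same libraries. The difference, pseudogene minus parent in log2 ratio, is free of library scaling and has an exact conditional 95% counting interval. Of 154 pairs with a read in the parent, the interval was above 0 in 25, below in 16 and spanned 0 in 113. The median difference was 0.02, with quartiles of -0.21 and 0.28, and the median size was 0.28.

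Pairs with more reads lay closer together. Of 92 pairs with at least 100 pseudogene reads, 57 differed by less than 0.25 and 81 by less than 0.5. A difference of at least 2-fold with an interval leaving out 0 was found in 7 of all 154 pairs with the pseudogene above and 6 with it below, and among the 92 deeper pairs in 2 and 0.

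**Figure D2:**
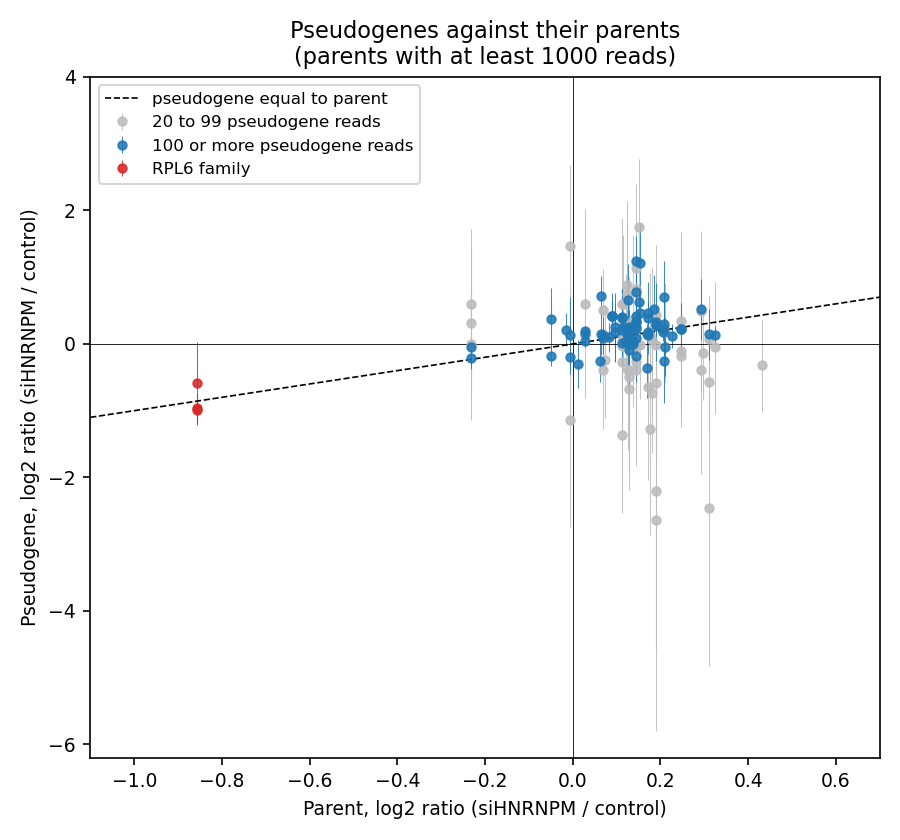
Log2 ratio of each pseudogene (vertical, bars: 95% counting interval) against that of its parent (horizontal), for parents with at least 1000 reads. The RPL6 family lies at the lower left near the dashed line of equal ratios, and the pseudogenes with 20 to 99 reads spread widest above and below that line.

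Over 74 pairs with at least 100 pseudogene reads and a parent of at least 1000 reads, from 38 parents, Pearson's r between pseudogene and parent ratios was 0.62 and Spearman's rho 0.34. Without the RPL6 family r was 0.26 and rho 0.26 over 71 pairs, so the larger r rested on that family. Over all 154 pairs r was -0.06 and rho -0.09. These are descriptions across genes, which are not independent replicates, and the points share both libraries and, where sequences match, possibly reads.

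Distance from the parent was smaller where more sequence was shared, and depth went the same way. For 17 pairs that shared no 50-base window with the parent's transcripts the median size of the difference was 0.53, at a median of 61 reads. For 54 pairs with up to 25% of windows shared it was 0.41 at 58 reads, for 35 pairs with 25% to 50% it was 0.23 at 196 reads, for 23 pairs with 50% to 75% it was 0.10 at 950 reads, and for 23 pairs above 75% it was 0.12 at 2509 reads. All 13 pairs past 2-fold shared at most 25% of their windows, 4 of them none.

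Within a depth class the same order held in the medians. With at least 100 pseudogene reads, the median size was 0.15 for 84 pairs that shared a window and 0.49 for 6 that shared none. Depth still differed between these, at a median of 878.5 reads against 234. Among pairs with 20 to 99 reads the median size was 0.52 for 51 pairs and 0.62 for 11, at a median of 35 and 38 reads. Neither likeness nor depth was tested as a source of the differences.

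**Figure D3:**
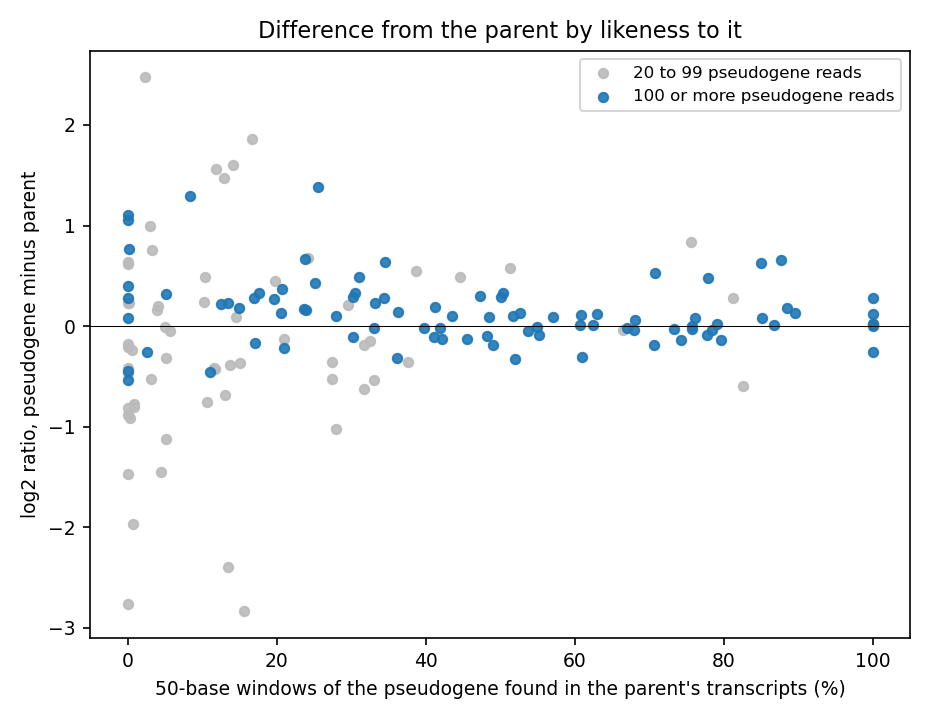
Difference of the log2 ratio, pseudogene minus parent (vertical), against the percentage of the pseudogene's 50-base windows found in the parent's transcripts (horizontal), for pairs with sequence. Differences beyond 1 in either direction stand at the left, and above 50% of windows no pair exceeds 1.

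The RPL6 family was the clearest case of pseudogenes and parent lower together. RPL6 had 7052 reads in the siHNRNPM library, against 19391 in the control library, a log2 ratio of -0.86, the lowest of the 56 parents with at least 20 reads. RPL6P27 had 435 reads (33.2 CPM) against 1318 (66.3 CPM), in the same order, a log2 ratio of -0.996 (-1.16 to -0.84), just short of 2-fold. RPL6P10 had 222 reads (17.0 CPM) against 659 (33.1 CPM), a log2 ratio of -0.97 (-1.19 to -0.74).

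All 3 copies were lower in the siHNRNPM library and none was apart from RPL6. RPL6P19 had 33 reads (2.52 CPM) in the siHNRNPM library, against 75 (3.77 CPM) in the control library, and its interval held 0 (-0.58, -1.22 to 0.03). Differences from the parent were -0.14 (-0.30 to 0.02) for RPL6P27, -0.11 (-0.34 to 0.11) for RPL6P10 and 0.27 (-0.36 to 0.89) for RPL6P19. Shared 50-base windows came to 74.3%, 41.2% and 34.4% of these copies, counted over each whole copy and not only the stretch shown above. They lie on 3 chromosomes, none of them the chromosome 12 of RPL6.

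Another set of families was marked by parents with few reads. Over 58 families, 15.5% of the reads of members and parents together were counted in members in the siHNRNPM library (15.5% to 15.6%) and 15.3% in the control library (15.3% to 15.4%). In 11 families the members held over 50% in both libraries. RPS18 was listed at 0 reads in both libraries, where a count of 0 allows up to 3 reads, while its 5 pseudogenes had 16354 reads in the siHNRNPM library and 22430 in the control library. RPS9, a small subunit protein gene, had 4 reads in the siHNRNPM library and 13 in the control library, and its pseudogenes had 1696 and 2147.

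GENCODE lists 37 transcripts of RPS18 and 43 of RPS9 on sequences outside the primary assembly. RPS10 had 7 reads in the siHNRNPM library and 17 in the control library, with 1075 and 1651 in its 4 pseudogenes, and 39.4% of its exonic bases are overlapped by the readthrough gene RPS10-NUDT3. RPL17 had 78 and 105 reads in the same order, with 6691 and 8380 in its 5 pseudogenes, and 24.8% of its exonic bases are overlapped by RPL17-C18orf32. Both readthrough genes were listed at 0 reads. The part of these features of the annotation in the low parent counts was not tested, and the way shared reads were assigned was not given in the sources used here.

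RPL39, RPS28, RPL36A, RPS26, RPL21, RPL41 and RPS25 complete the 11. RPL39 had 136 reads in the siHNRNPM library and 244 in the control library, while its pseudogenes held 97.6% and 97.1% of the family's reads. RPS28 had 114 and 168 reads, and its pseudogenes 97.4% in each library. RPL21 had 392 and 700, with 91.3% and 90.4% in its pseudogenes. Summed over each family, members stood above the parent beyond counting error in 11 of 57 families and below it in 7.

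**Figure D4:**
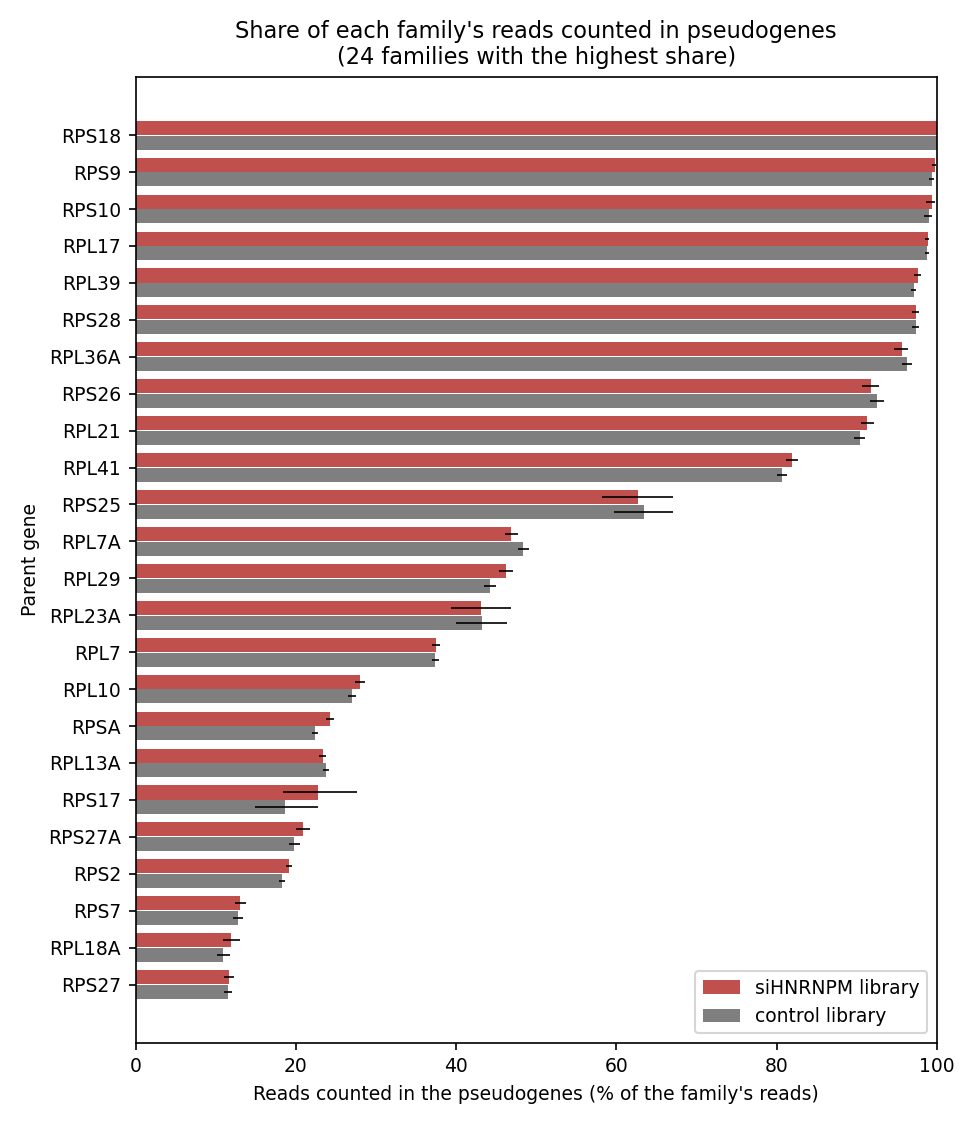
Percentage of the reads of a parent and its pseudogenes that were counted in the pseudogenes, for the 24 families with the highest share, in the siHNRNPM library (red) and the control library (grey); bars end at the share and lines show the 95% Clopper-Pearson interval. RPS18 stands at 100% in both libraries, 11 families are above 50%, and the bars of a family differ little between libraries.

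Where a parent had few reads its own ratio was imprecise, and differences from it carried wide intervals. RPS10P7, a transcribed copy with 3 exons, had 16 reads (1.22 CPM) in the siHNRNPM library, against 7 (0.352 CPM) in the control library, a log2 ratio of 1.80 (0.43 to 3.32). RPS10P13 had 21 reads (1.60 CPM) against 14 (0.704 CPM), a log2 ratio of 1.19 (0.14 to 2.28). Their differences from RPS10, 2.47 (0.45 to 4.55) and 1.87 (0.09 to 3.71), rest on the 24 parent reads given above.

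The members past 2-fold above their parents shared at most 25% of their windows with them. RPSAP52, annotated as transcribed and lying opposite HMGA2, had 161 reads (12.3 CPM) in the siHNRNPM library, against 103 (5.18 CPM) in the control library, a log2 ratio of 1.25 (0.88 to 1.62). It shared no 50-base window with RPSA and stood 1.10 (0.74 to 1.48) above it. HMGA2, an architectural chromatin protein gene on the other strand, had 2525 and 3807 reads in the same order and a log2 ratio of 0.01 (-0.06 to 0.08).

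The other 8 RPSA copies differed from it by less. RPSAP12 had 140 reads (10.7 CPM) in the siHNRNPM library, against 124 (6.24 CPM) in the control library, a log2 ratio of 0.78 (0.42 to 1.14) and 0.63 (0.27 to 0.996) above RPSA. RPSAP58, with 99.5% identity over 888 bases, had 3230 reads (247 CPM) against 4207 (212 CPM), a log2 ratio of 0.22 and 0.08 (0.01 to 0.15) above RPSA. The 9 ratios of the family ran from -0.27 to 1.25, with RPSA at 0.14.

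RPL15P2, the copy with 14 differences in the stretch shown, had 31 reads (2.37 CPM) in the siHNRNPM library, against 14 (0.704 CPM) in the control library, a log2 ratio of 1.75 (0.80 to 2.77). RPL15P3, with no difference there, had 701 reads (53.6 CPM) against 690 (34.7 CPM), a log2 ratio of 0.63 (0.47 to 0.78). RPL15 itself had a log2 ratio of 0.15, so both copies stood above it, by 1.60 (0.65 to 2.62) and 0.48 (0.32 to 0.63). RPL15P3 was thus apart from a parent with which it shares 77.9% of its windows.

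RPL9P7 was another close copy apart from its parent. Of 23 pairs with over 75% of windows shared, 4 had an interval above 0, RPL15P3 and RPL9P7 among them, and 1 below. RPL9P7, with 99.7% identity to the large subunit gene RPL9, had 195 reads (14.9 CPM) in the siHNRNPM library, against 180 (9.05 CPM) in the control library, a log2 ratio of 0.72 (0.42 to 1.02). It stood 0.65 (0.35 to 0.96) above RPL9. It lies within APOO on the same strand, whose log2 ratio was -0.33 (-0.62 to -0.06).

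RPL13P5, a transcribed copy with 4 exons, had 64 reads (4.89 CPM) in the siHNRNPM library, against 42 (2.11 CPM) in the control library, a log2 ratio of 1.21 (0.63 to 1.81). It shared no 50-base window with RPL13 and stood 1.06 (0.47 to 1.65) above it. It overlaps 561 exonic bases of LRRC23, whose log2 ratio was 0.19 (-0.13 to 0.51). It also overlaps 60 exonic bases of DSTNP2 on the same strand and 228 of SPSB2 on the opposite strand. DSTNP2 had 103 reads in the siHNRNPM library and 110 in the control library, and SPSB2 had 72 and 78. RPL23AP7, also transcribed, had 72 reads (5.50 CPM) against 60 (3.02 CPM) in the same order and stood 0.77 (0.21 to 1.32) above RPL23A.

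The remaining 2-fold calls above a parent rested on few reads. RPL12P17 had 20 reads (1.53 CPM) in the siHNRNPM library, against 11 (0.553 CPM) in the control library, and RPS28P5 had 16 (1.22 CPM) against 8 (0.402 CPM). Their log2 ratios were 1.47 (0.34 to 2.67) and 1.60 (0.30 to 3.04).

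RPS19BP1, the protein-coding entry, was the deepest of the 8 members past 2-fold higher. It had 807 reads (61.7 CPM) in the siHNRNPM library, against 402 (20.2 CPM) in the control library, a log2 ratio of 1.61 (1.43 to 1.78). No parent of that name is in the table, so it enters no pair. Without it, 7 of 159 members (4.40%) were past 2-fold higher, against 2.32% of features with at least 20 reads.

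**Figure D5:**
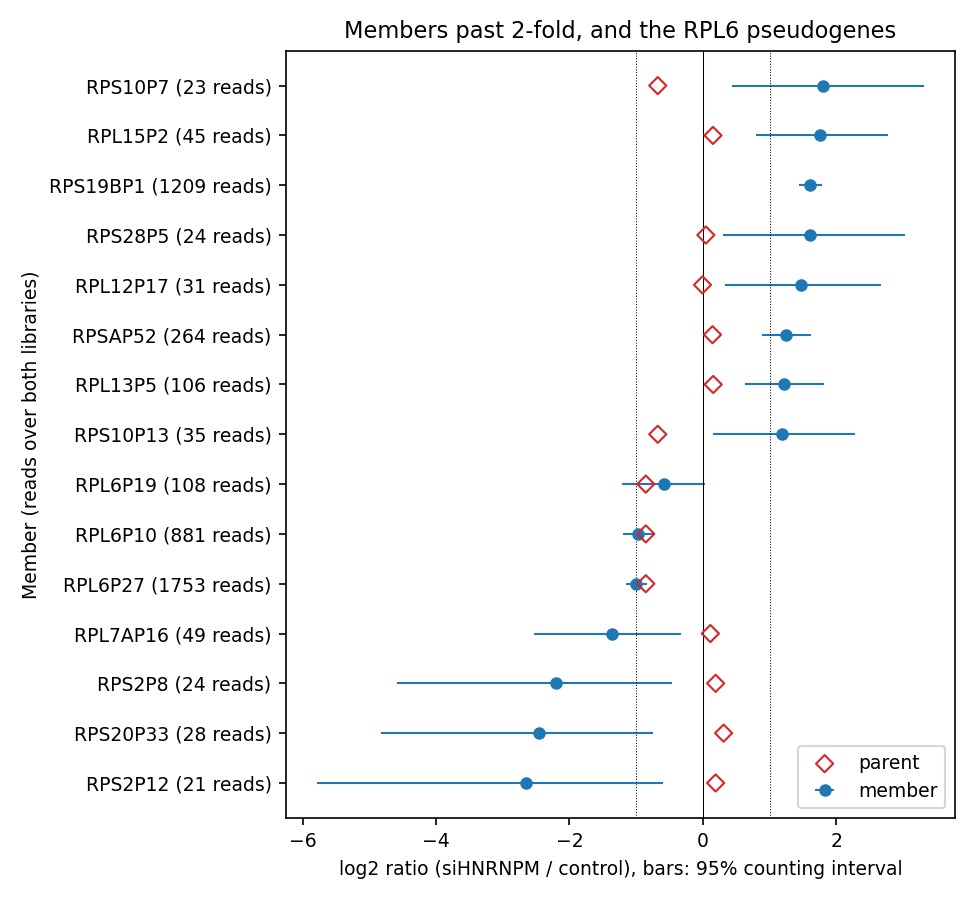
Log2 ratio with its 95% counting interval (filled circles) of the 12 members past 2-fold in either direction and the 3 RPL6 pseudogenes, in order of the ratio, with the parent's ratio (open diamonds) where the parent has reads. RPS19BP1 has the narrowest interval of the 12 past 2-fold, the RPL6 pseudogenes lie near their parent, and the 4 members past 2-fold lower have intervals reaching below -2 while their parents lie above 0.

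Below the parent stood 6 members past 2-fold, each with under 100 reads. RPS2P12 had 2 reads (0.153 CPM) in the siHNRNPM library, against 19 (0.956 CPM) in the control library, a log2 ratio of -2.64 (-5.79 to -0.59). RPS2P8 had 3 (0.229 CPM) against 21 (1.06 CPM), a log2 ratio of -2.20 (-4.59 to -0.46). Their parent RPS2, a small subunit protein gene, had a log2 ratio of 0.19.

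The other 6 RPS2 copies had intervals above or spanning 0. The deepest, RPS2P5, had 5426 reads (415 CPM) in the siHNRNPM library, against 6793 (342 CPM) in the control library, and stood 0.09 (0.03 to 0.15) above RPS2. Ratios of the 8 copies ran from -2.64 to 0.43.

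RPS20P33 had 3 reads (0.229 CPM) in the siHNRNPM library, against 25 (1.26 CPM) in the control library, a log2 ratio of -2.46 (-4.83 to -0.74). Its difference from RPS20, a small subunit protein gene, was -2.77 (-5.14 to -1.05), the only 1 of the 13 with its whole interval beyond 2-fold. It lies in PACS2 on the same strand, whose log2 ratio was 0.25 (0.08 to 0.41). RPL7AP16 had 10 reads (0.764 CPM) against 39 (1.96 CPM) in the same order, a log2 ratio of -1.36 (-2.53 to -0.33).

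RPL7AP16 and RPS15AP10 lie in the same gene, GPBP1L1, on its strand. RPS15AP10 had 17 reads (1.30 CPM) in the siHNRNPM library, against 43 (2.16 CPM) in the control library, and stood -0.92 (-1.82 to -0.08) from RPS15A. GPBP1L1 had a log2 ratio of 0.10 (-0.00 to 0.19), with an interval that overlapped that of RPS15AP10 and not that of RPL7AP16. RPL36AP43, RPS6P1 and RPS20P22 stood -1.97, -1.45 and -0.88 from their parents, while RPL23AP53 and RPLP1P1 stood -0.45 and -0.53 from theirs.

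Of 29 members overlapping a protein-coding gene with reads on the same strand, 23 had a counting interval that overlapped the one of that gene. RPL13P5 and RPL9P7 lay above theirs, and RPL18AP3, RPL7AP16, RPS20P33 and RPS2P12 below.

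Outside RPL6, the deeper members with an interval below a ratio of 1 had log2 ratios between -0.35 and -0.18. RPL12P4 had 869 reads (66.4 CPM) in the siHNRNPM library, against 1510 (75.9 CPM) in the control library, a log2 ratio of -0.19 (-0.32 to -0.07), with RPL12 at -0.01. RPL21P16, identical to its parent over 483 bases, had 467 (35.7 CPM) against 821 (41.3 CPM), a log2 ratio of -0.21, with RPL21 at -0.23. RPL4P4 had 578 (44.2 CPM) against 996 (50.1 CPM), a log2 ratio of -0.18, with RPL4 at -0.05. RPL23AP53 had 138 (10.5 CPM) against 267 (13.4 CPM), a log2 ratio of -0.35 (-0.66 to -0.05), with RPL23A at 0.10.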

How the data were processed

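RNA-seq was made from 1 library per group. The authors deposited whole-number read counts per gene symbol; HISAT2 2.0.4 and GRCh38 are named, per the submitters' processing notes, and the counter, strand setting and treatment of reads that match several places are not given in the sources used here. Both columns were used. Counts were scaled by TMM (edgeR 4.0.16, R 4.3.3; DESeq2 1.42.0 size factors as an alternative), and a count of 0 was set to 0.5. Ratio intervals are 95% Clopper-Pearson intervals of the read split (SciPy 1.17.1), pair intervals are exact conditional ones, and both cover counting error only. A call needed a 2-fold ratio and an interval leaving out a ratio of 1. Likeness came from BLAST+ 2.17.0 against GENCODE release 29 transcripts, and from 50-base windows found in any parent transcript. The ratio, call and pair steps were tested on simulated counts drawn independently for each gene. The likeness step and reads shared between genes were not simulated.

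Members and lists were chosen with earlier results of these data known. Members named were the 12 with most reads, up to 10 in each direction by the nearest bound of the ratio and of the pair difference, and those next to the read minimum. RPL6P19, RPS10P13, RPSAP58, RPL18AP3 and the identical copies of RPL41 and RPL36A were named after their values were seen.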

Additional observations from a re-analysis of the deposited data

How the results depend on the processing

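With 1 library per group no library could be left out, and culture-to-culture variation is unmeasured. No paired analysis was possible because each group has 1 library. Of 132 values under alternatives, 74 kept their size and 58 moved, and the medians that crossed 0 are among those given below. Scaling by total count, DESeq2 or upper quartile left every count within 1.5 times. DESeq2 factors gave 5 of 160 members past 2-fold lower.

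The read minimum moved most counts, by construction. From 10 reads, 8 of 208 members were lower and 11 of 202 pairs were below the parent. The share in members was 14.0% in the siHNRNPM library and 13.9% in the control library. From 50 reads, 3 of 117 members were higher and 0 lower, and 6 had an interval below a ratio of 1. Of 112 pairs, 2 were above and 0 below, and shares were 16.2% and 16.0%. From 100 reads these were 3, 0, 6, 2 and 0, over 96 members and 92 pairs, with shares of 18.8% and 18.4%. With no minimum, 14 members passed higher and 9 lower, their median was 0.0261, 12 pairs were below, the median difference was -0.0889, and shares were 12.4% and 12.3%.

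With the control library thinned to equal depth, 1 of 148 members was lower and 3 of 142 pairs were below. Leaving out members on exons of other genes gave shares of 14.1% and 13.9%. Leaving out members that share 50 bases with the parent left 21, with 3 higher, 2 lower, 6 above, 3 below and a median of -0.000737. Of their 19 pairs, 2 were above and 2 below, the median difference was -0.18, and shares were 3.81% and 3.79%. The 21 members left include RPS19BP1 and the 2 with no sequence, RPL41P3 and RPS26P25. Ignoring the interval gave 7 of 160 members lower. Asking the whole interval to pass 2-fold left 1 of 160 members higher and 0 lower, and 0 of 154 pairs above and 1 below. Leaving out RPS19BP1, RPL41P3 and RPS26P25 as well as the members that share 50 bases was chosen after seeing the data. Of the 18 members left, 2 were higher, 2 lower, 3 above and 3 below, with a median of -0.0197. Of their 17 pairs, 2 were above and 2 below, the median difference was -0.209, and shares were 0.611% and 0.587%.

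Other alternatives chosen after seeing the data left out RPS19BP1, or left out the RPL6 family, which put the control share at 15.4%. Asking for 1000 parent reads, also chosen after seeing the data, left 4 of 127 pairs above and shares of 11.04% and 10.9%. The cause of these moves was not tested beyond the changed membership.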
